A study of Homo sapiens with 8 samples.

Results

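The insulin-like growth factor (IGF) axis was examined in H460 cells, a human non-small-cell lung cancer (NSCLC) line, and in 2 populations derived from it. It was followed through 10 genes. These are the IGF-binding proteins IGFBP1 to IGFBP7, the receptor IGF1R, the ligand IGF2, and CRIM1, a membrane protein whose extracellular part carries an IGF-binding domain. The genes were taken by name, and every probe of the array whose RefSeq accession maps to one of the 10 symbols was read. They had 17 probes of the 41000 on the array, and 12 of these, covering 9 of the 10 genes, could be tested. IGFBP5 was the gene that could not.

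Both derived populations were hybridized against untreated H460 on dual-color 44K whole-genome arrays, 8 in all. H460C are cancer stem cells (CSCs) grown as spheres, without attachment, in defined DMEM/F12 medium with N2 supplement, EGF and basic FGF and no serum. H460R are cells that survived 0.5 µg/mL of cisplatin given for 72 h and were then grown without the drug, attached, in RPMI with fetal bovine serum, which was also the medium of H460. There were 2 RNA samples per population, with a dye-swapped pair of arrays for each. One H460 sample is named by the labels on all 8 arrays, so ratios over H460 leave out the spread of H460 itself, and both comparisons share that control. Medium and attachment differ together with H460C, and the 4 arrays of each population lay on a slide of their own, so that these cannot be told apart from the population. The labels do not say that the samples came from separate cultures. The p-values by limma, a test on means, then measure only the spread between these samples. The false discovery rates by Rank Products rest on the ranks of 2 ratios per population and measure no spread.

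IGF1 and IGF2 are secreted peptides that signal mainly through the receptor tyrosine kinase IGF1R, which recruits insulin receptor substrates and activates the PI3K/AKT and MAPK pathways. In the circulation and around cells most IGF is held by binding proteins. These control how long IGF persists and how much of it reaches the receptor, and several also act without IGF. Proteases such as PAPPA cut the binding proteins and release the ligand. In lung tumors the axis is known for its links to growth, survival and the response to chemotherapy.

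The start regions of the IGFBP genes are shown first, since several of these genes had large ratios here. Of the 10 genes, 6 had a window in the RefSeq promoter table (build GRCh38.p14), and 3 are printed, each being the 250 bases before the transcription start, 5′ to 3′ on the strand of the gene. IGFBP3 (chr7:45921273-45921522, minus strand) and IGFBP6 (chr12:53097417-53097666, plus strand) had low ratios in H460C, and IGFBP4 (chr17:40443200-40443449, plus strand) had high ratios in both populations. Capitals mark any match, on either strand, to the TATA-like letters TATANA, to the GC box GGGCGG or to the AP-1-like letters TGANTCA.
IGFBP3 promoter: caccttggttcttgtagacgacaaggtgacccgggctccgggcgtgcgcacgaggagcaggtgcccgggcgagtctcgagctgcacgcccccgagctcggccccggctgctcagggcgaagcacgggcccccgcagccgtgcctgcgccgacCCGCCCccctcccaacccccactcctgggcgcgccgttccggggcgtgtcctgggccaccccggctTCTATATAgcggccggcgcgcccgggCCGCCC
IGFBP4 promoter: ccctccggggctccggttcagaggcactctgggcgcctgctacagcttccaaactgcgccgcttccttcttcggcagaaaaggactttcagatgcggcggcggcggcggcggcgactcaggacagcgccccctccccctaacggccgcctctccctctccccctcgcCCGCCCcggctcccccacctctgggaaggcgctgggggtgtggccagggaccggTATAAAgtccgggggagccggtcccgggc
IGFBP6 promoter: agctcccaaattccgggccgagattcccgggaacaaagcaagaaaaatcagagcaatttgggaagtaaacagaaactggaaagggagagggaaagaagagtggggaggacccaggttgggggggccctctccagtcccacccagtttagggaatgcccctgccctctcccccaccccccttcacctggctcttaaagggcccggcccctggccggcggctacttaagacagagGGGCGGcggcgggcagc
The IGFBP3 window was 76.0% G or C and held 2 GC boxes and a TATA-like stretch with 2 overlapping matches. IGFBP4 had 71.6% G or C with 1 match to each of these motifs, and IGFBP6 had 61.2% with 1 GC box and no TATA-like match. None of the 3 windows held the AP-1-like letters. Among the 35116 windows of the same length in the table, the median was 58% G or C, and 42.6% held a GC box, 17.7% a TATA-like match and 6.57% an AP-1-like match. A match is a description of the letters and not a site of binding.

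IGFBP7 had the lowest ratio of the 10 genes in CSCs. IGFBP7 is a secreted protein of the vascular and stromal matrix that binds IGF only weakly. In H460C its log2 ratios over H460 were -3.85 and -2.82 on the arrays of replicate 1 (H460C in Cy3, then in Cy5) and -4.02 and -3.52 on those of replicate 2. All 4 arrays were far below 0, and the array of replicate 1 with H460C in Cy5 was the least low. The mean was -3.55, or 11.7-fold lower, at rank 9 from the lowest of 19404 gene names tested. The false discovery rate (FDR) by Rank Products was 0.00248. In H460R the same probe gave 0.33, 0.86, 0.14 and 0.65, all above 0, with a mean of 0.50 ± 0.14 (SD, n = 2 samples), which was not called (FDR 0.703). IGFBP7 thus stood in the order H460C below H460, with H460R and H460 not separated by this test.

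IGFBP6, a binding protein with a preference for IGF2, was lower in CSCs too. Its H460C arrays read -2.42, -1.98, -2.46 and -2.51, a mean of -2.34 or 5.07-fold lower with an FDR of 0.0198. In H460R the arrays read -0.98, -1.25, -1.17 and -1.53. All 8 arrays were below 0 and the populations did not overlap, H460R lying between H460C and H460. The H460R mean was -1.23 ± 0.16 (SD, n = 2), and its FDR of 0.0552 did not pass the threshold of 0.05. It passed without the filter on dim probes (0.0363) and with the mean over the probes of each gene (0.0491).

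CRIM1 binds bone morphogenetic proteins and other growth factors at the cell surface. It was below H460 in CSCs and above it in H460R. At its brightest tested probe the H460C arrays read -2.41, -1.58, -2.33 and -2.16, with a mean of -2.12, 4.35-fold lower, and an FDR of 0.0301. The H460R arrays read 1.18, 1.52, 1.16 and 1.16, with a mean of 1.26 ± 0.13 (SD, n = 2) and an FDR of 0.148, which is not a call. Every H460C array was below 0 and every H460R array above it. The second tested probe of CRIM1 gave -1.21, -0.47, -1.17 and -1.23 in H460C and 1.14, 0.64, 1.09 and 1.04 in H460R. Its means of -1.02 and 0.98 ± 0.13 had the same signs but were smaller, and neither was called (FDR 0.228 and 0.280). The third probe was not well above background in any channel. The call in H460C was lost with the log ratio of the scanner software (FDR 0.0709), on the arrays with H460C in Cy5 alone (0.0562) and with the mean over both probes (0.0851).

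IGFBP3, the main carrier of IGF in blood, had 2 tested probes. The brighter one, printed as 10 spots on each array, read -1.73, -1.45, -1.77 and -1.51 in H460C, a mean of -1.62 or 3.06-fold lower, with an FDR of 0.0794. The other read -1.93, -2.31, -1.90 and -2.54, a mean of -2.17 or 4.51-fold lower, with an FDR of 0.0268. All 8 readings were below 0, but the gene was called by the dimmer probe only, and the mean of both, -1.89, was called with an FDR of 0.0473. In H460R the brighter probe read 0.62, 0.43, 0.13 and 0.17, with a mean of 0.34 ± 0.27 (SD, n = 2). Its H460R channel was saturated on 1 of 4 arrays, so that the ratio of that array is a limit. The dimmer one read 0.48, -0.15, -0.07 and -0.56, with a mean of -0.072 ± 0.34. The probes thus had means of opposite sign in H460R, the second well within its spread. Neither was called by Rank Products, while limma placed the brighter probe higher than H460 (adjusted p = 0.0182). Of the spots of the brighter probe, 10 were outliers and set to missing over the 8 arrays.

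IGFBP2, a binding protein often found raised in tumors, read -1.55, -1.21, -1.50 and -1.27 in H460C and -0.27, -0.39, -0.31 and -0.55 in H460R. As read, all arrays lay below 0, and those of H460C lay below those of H460R. The means were -1.38 in H460C (FDR 0.123) and -0.38 ± 0.073 (SD, n = 2) in H460R (FDR 0.693), so that neither was called. This probe was bright, and the H460 channel was saturated on 4 of 8 arrays, 2 in each population, and the H460R channel on 2 of 4. Saturated spots were taken at their value, so that the ratios of those arrays are limits and no fold is given. The sign of the H460R ratios and their order against H460C are therefore not settled. In the authors' processed table the same means were -1.44 and -0.30, and H460R read -0.04 and 0.02 with H460R in Cy5 against -0.54 and -0.64 in Cy3.

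IGFBP1, a binding protein made mainly by liver and decidua, was the member called higher in cisplatin-resistant cells. Its H460R arrays read 2.12, 2.14, 1.76 and 2.06. The mean was 2.02 ± 0.16 (SD, n = 2), or 4.06-fold higher than H460, at rank 38 from the highest of 19404, with an FDR of 0.0168. In H460C it read -0.71, -0.31, -0.65 and -0.37, with a mean of -0.51 that was not called (FDR 0.624). All H460R arrays were above 0 and all H460C arrays below it. The H460R call was lost with the log ratio of the scanner software (FDR 0.134) and on the arrays with H460R in Cy3 alone (0.0526). IGFBP1 and IGFBP3 are neighbors on chromosome 7, with no protein-coding gene between them in RefSeq. In H460C both had means below 0, while in H460R IGFBP1 was high and the IGFBP3 probes were close to 0.

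**Figure D1:**
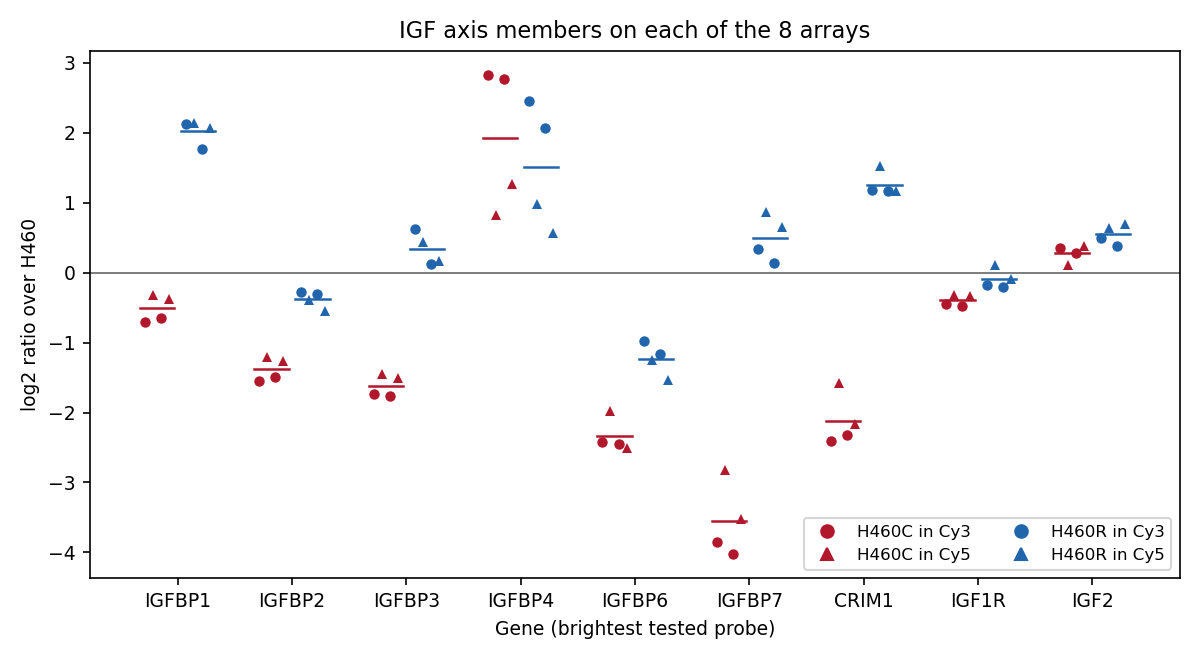
Log2 ratio over H460 (vertical axis) of the 9 tested members on each of the 8 arrays, at the brightest tested probe. Red, H460C; blue, H460R; circles, studied cells in Cy3; triangles, studied cells in Cy5; horizontal bars, mean of the 4 arrays of a population. IGFBP7, IGFBP6 and CRIM1 lie lowest in H460C, with means of -3.55, -2.34 and -2.12, IGFBP1 lies highest in H460R at 2.02, and the circles and triangles of IGFBP4 are far apart.

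IGFBP4, which in most settings holds IGF away from its receptor, had high ratios in both populations, but they depended on the dye. With the studied cells in Cy3 it read 2.83 and 2.77 in H460C and 2.45 and 2.06 in H460R. With the dyes exchanged it read 0.83 and 1.26 in H460C and 0.98 and 0.56 in H460R. All 8 values were above 0 and the populations overlapped. The means were 1.92 in H460C (FDR 0.0792) and 1.51 ± 0.29 (SD, n = 2) in H460R (FDR 0.0847), neither of which was called. The gap between the dye orientations was 1.76 in H460C, larger than for 99.8% of tested probes, and 1.49 in H460R, larger than for 98.9%. On the Cy3 arrays alone both were called (FDR 0.0242 and 0.0177), while the Cy5 arrays alone gave 1.04 and 0.77 with no call. Each mean holds both orientations equally, so that a dye effect of the same size in both cancels in it.

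**Figure D2:**
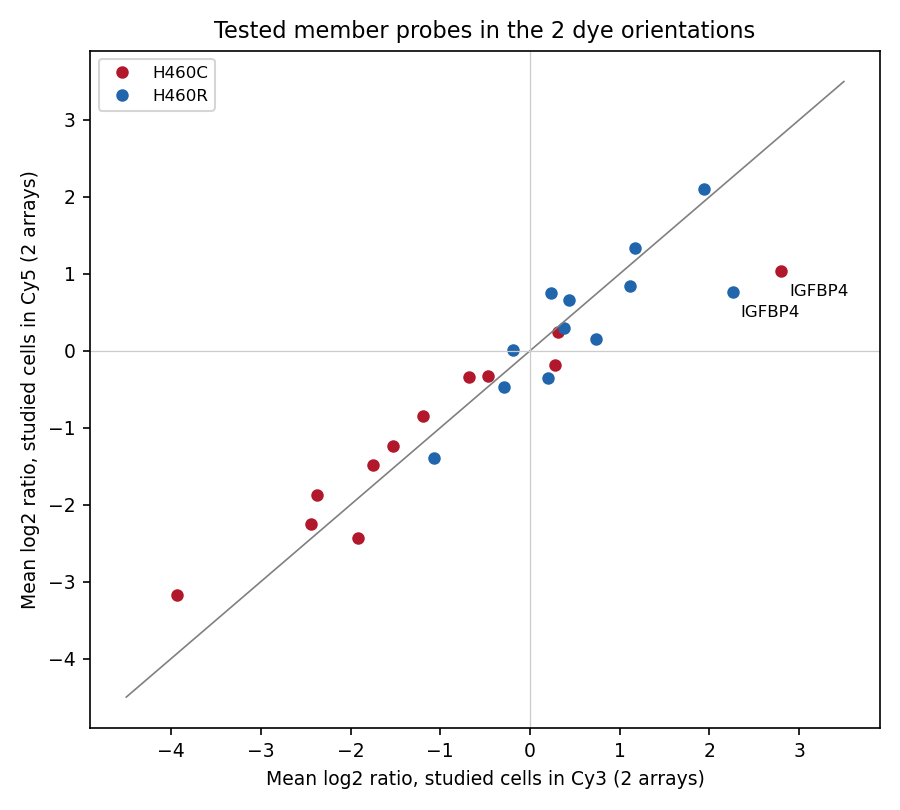
Mean log2 ratio over H460 of each of the 12 tested member probes with the studied cells in Cy3 (horizontal axis) and in Cy5 (vertical axis), 2 arrays each. Red, H460C; blue, H460R; the line marks equal values. The IGFBP4 points lie farthest below the line, at 2.80 and 1.04 in H460C and at 2.26 and 0.77 in H460R.

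IGFBP5, a binding protein held in the extracellular matrix, was not measured above background. One of its 3 probes was well above background on 1 of 4 arrays in each derived population and on 2 of 8 arrays in H460. The other probes were at background in every channel, so that only a bound by the background holds and no ratio is given. IGFBP5 lies next to IGFBP2 on chromosome 2 in RefSeq.

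The receptor gene IGF1R had small ratios. Its brighter probe read -0.45, -0.32, -0.48 and -0.33 in H460C, a mean of -0.40 (FDR 0.758). In H460R it read -0.18, 0.11, -0.20 and -0.09, a mean of -0.091 ± 0.078 (SD, n = 2). The dimmer probe, printed as 10 spots, read 0.27, -0.13, 0.29 and -0.23 in H460C and 0.79, 0.07, 0.68 and 0.24 in H460R. Its means were 0.048 and 0.45 ± 0.022, so that both populations had means of opposite sign between the probes. No probe of IGF1R was called in either population, and the direction against H460 was not settled in H460R, where it turned with median centering, on the Cy5 arrays alone and with the mean over both probes.

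IGF2, the ligand that is expressed from the paternal allele in most tissues, was near the detection limit. One probe was well above background in the H460C channel on 4 of 4 arrays and in the H460R channel on 4 of 4, but in H460 on 0 of 8. It read 0.35, 0.10, 0.28 and 0.39 in H460C and 0.49, 0.63, 0.38 and 0.69 in H460R, with means of 0.28 and 0.55 ± 0.021 (SD, n = 2). H460 gives only a bound, so the folds of these means, 1.21 in H460C and 1.46 in H460R, would be larger with a lower H460 signal. They are not lower limits over the arrays or the settings. One H460C array read 0.10, and over the other settings the means went down to 0.24 in H460C and 0.43 in H460R. Neither population was called (FDR 0.961 and 0.650). IGF2 entered the tests only through the derived populations. The other probe, for another IGF2 transcript, was well above background on 0 of 4 arrays in H460C, 2 of 4 in H460R and 2 of 8 in H460 and was not tested. Its means, near background, were -0.12 in H460C and -0.20 in H460R.

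Over the 10 genes, 3 of the 9 that could be tested were called lower in H460C (IGFBP6, IGFBP7 and CRIM1) and none higher. Of all 19404 gene names tested, 0.557% were called lower and 0.557% higher. In H460R, IGFBP1 was called higher and no member lower, where 0.479% and 0.474% of all gene names were. The median log2 ratio of the tested members was -1.38 in H460C and 0.50 in H460R, and that of all gene names was -0.0012 and 0.011. The H460C median of the members is the value of IGFBP2, whose saturated arrays give only limits. The study itself listed IGFBP3, IGFBP6, IGFBP7 and CRIM1 among genes lower in H460C and IGFBP1 among genes higher in H460R from these same samples, so their directions are not independent evidence.

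The absence of a call by Rank Products, a test on ranks, did not mean a value within the spread. By limma, which sets the mean ratio against the spread of the replicates, 7 of 9 tested members were lower and 2 higher in H460C, where 34.8% of all gene names were called lower and 36.9% higher. In H460R 2 were lower and 6 higher, against 32.7% and 37% of all gene names. The shares of the whole array called by this test are so large that these counts say little of the members. The H460C replicates differed by no more than repeat hybridizations of 1 sample, since the correlation of their difference between the dye orientations was -0.011 over 24642 probes. In H460R it was 0.27 over 25745. H460C is therefore given without an SD, as 1 sample, although the tests took both of its replicates. With H460C as 1 ratio, Rank Products could not pass its threshold, and none of its calls in H460C could be made.

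H460C was next compared directly with H460R, as the difference of their log2 ratios, in which the shared H460 sample cancels. The SEs and p-values of this fit count the H460C replicates as 2 samples, although they differed by no more than repeat hybridizations. IGFBP7 was lower in H460C than in H460R by 16.6-fold, with a log2 difference of -4.05 ± 0.15 (limma SE) and an adjusted p of 5.38e-05. CRIM1 was lower by 10.4-fold (-3.38 ± 0.11, adjusted p = 4.03e-05 by limma) and IGFBP1 by 5.79-fold (-2.53 ± 0.085, adjusted p = 4.05e-05 by limma). The next were IGFBP3 at -1.95 ± 0.13 and -2.10 ± 0.16 for its probes, IGFBP6 at -1.11 ± 0.12 and IGFBP2 at -0.998 ± 0.062. Their adjusted p-values by limma lay between 0.000168 and 0.00101. The IGFBP2 value and that of the brighter IGFBP3 probe include the saturated spots named above.

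IGF1R and IGF2 differed less. The IGF1R probes gave -0.31 ± 0.063 and -0.40 ± 0.056 (limma SE), with adjusted p-values of 0.00955 and 0.00227, and IGF2 gave -0.27 ± 0.063 with 0.0155. The IGF2 ratios rest on an H460 signal not well above background on any array, so that the size of its difference is not settled, and over the other settings it ran from -0.98 to -0.12. The IGF1R call at the brighter probe was lost with median centering (adjusted p = 0.189, limma) and on the Cy5 arrays alone (0.056). That of IGF2 was lost in the same settings (0.142 and 0.0524), on the Cy3 arrays alone (0.178) and without replicate 1 of H460C (0.0973) or of H460R (0.0636). IGFBP4 differed by 0.41 ± 0.14 in the other direction and was not called (adjusted p = 0.0578, limma). It was called higher in H460C without replicate 1 of H460C (0.0317), without replicate 1 of H460R (0.0187), and in 5 further settings given with the limits of the processing.

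In all, 8 of 9 tested members were lower in H460C than in H460R and none was higher, where 28.5% of all gene names were lower and 28.4% higher. Since the study had listed IGFBP3, IGFBP6, IGFBP7, CRIM1 and IGFBP1 from these same samples, the count is not independent evidence. Under the stricter filter, which leaves out IGF2, 7 members were lower and IGFBP4 was higher. For 7 of the 9, IGF2 and IGFBP4 being the exceptions, all 4 H460C arrays lay below all 4 H460R arrays. The 7 include IGFBP2, for which the ratios of the saturated arrays are limits. Among all gene names 18.1% had their H460C arrays below and 17.3% above. The 8 calls were also made when the H460C replicates were averaged into 1 sample.

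**Figure D3:**
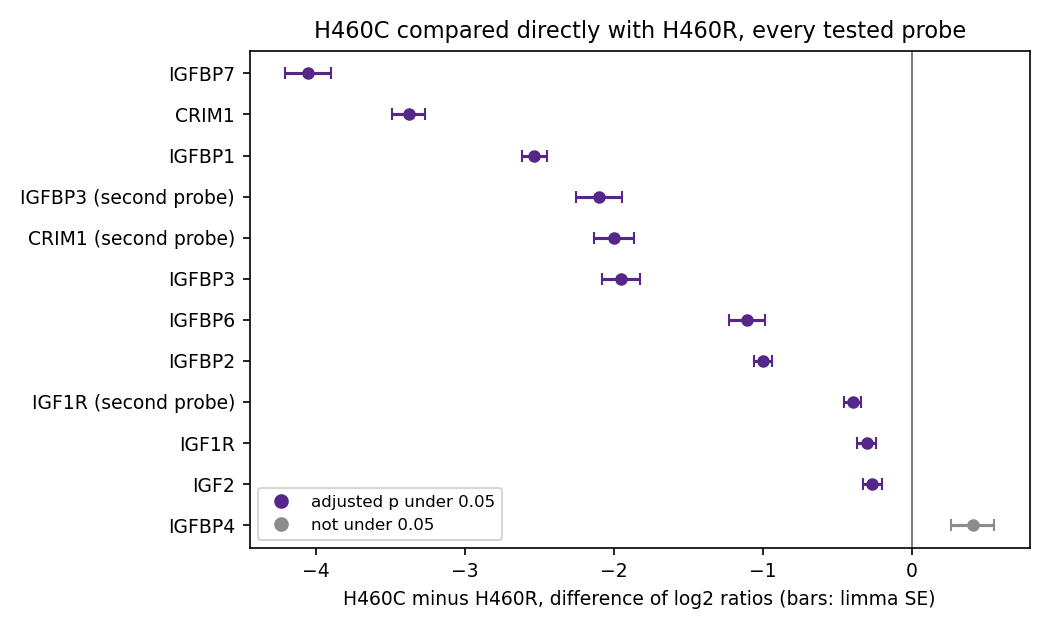
Difference of log2 ratios, H460C minus H460R (horizontal axis), for each of the 12 tested member probes, with limma standard errors as bars. Purple points passed an adjusted p of 0.05 and the gray point did not. IGFBP7 lies farthest left at -4.05, and IGFBP4, at 0.41, is the probe to the right of 0.

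The genes whose profiles over the 8 arrays were nearest to those of the 2 extreme members were sought by Euclidean distance among 19404 gene names. Nearest to IGFBP7 was SRPX, a secreted sushi-repeat protein, at a distance of 0.925. It was -3.34 in H460C and 0.77 ± 0.010 (SD, n = 2) in H460R. Next were PXDN, a peroxidase of basement membranes, with -3.30 and 0.22 ± 0.089 at a distance of 1.06, and FST, the activin antagonist follistatin, with -3.41 and 0.41 ± 0.17 at 1.17. Nearest to IGFBP1 were LY6K at 0.723, TMEM140 at 0.834 and COLEC12, a scavenger receptor, at 0.868. They had ratios of -0.64, -0.25 and -0.25 in H460C and of 2.15 ± 0.061, 1.81 ± 0.023 and 2.04 ± 0.31 (SD, n = 2) in H460R. These likenesses are a description over 8 arrays of 2 populations, which share the H460 sample.

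Other genes of the pathway were read from a list of 74, of which 71 were matched to a probe and 55 tested. In H460C 1 was called lower and 2 higher, and in H460R 1 lower and 1 higher. The median of the tested genes was -0.020 in H460C and 0.11 in H460R. In the direct comparison 24 were lower in H460C than in H460R and 14 higher, of 55, where 28.5% and 28.4% of all gene names were. Against H460 the shares of all gene names were 0.557% in each direction in H460C, and 0.474% lower and 0.479% higher in H460R.

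**Figure D4:**
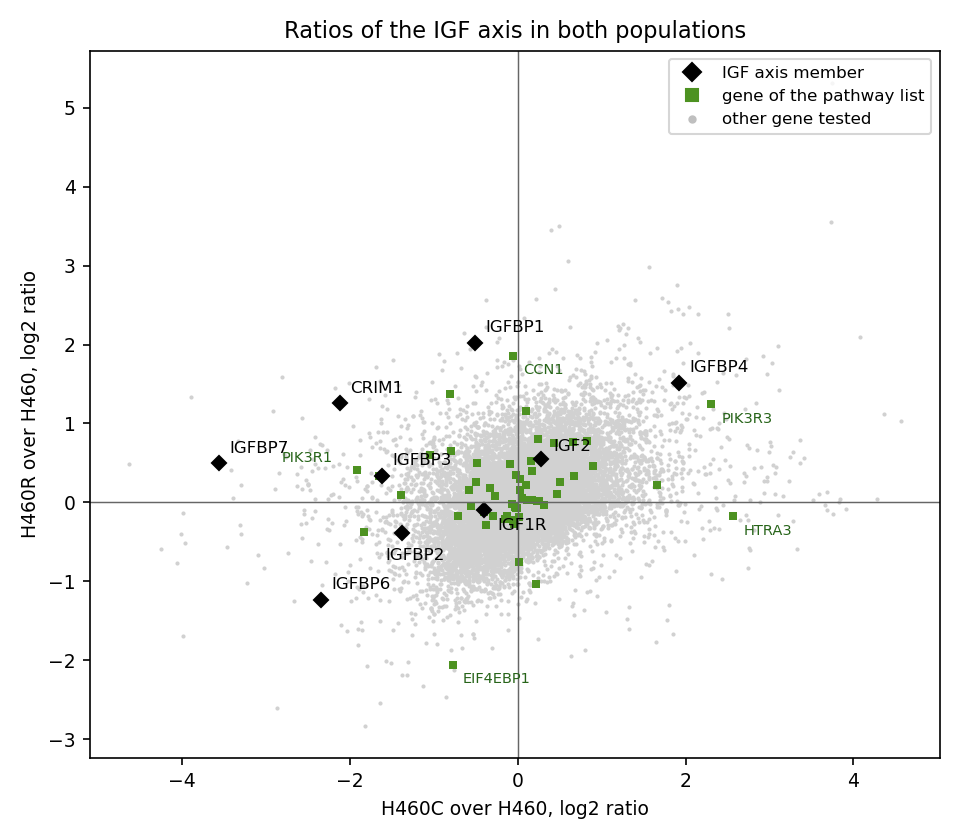
Log2 ratio of H460C over H460 (horizontal axis) and of H460R over H460 (vertical axis), mean of 4 arrays each, for the 9 tested members (black), the 55 tested genes of the pathway list (green) and the other gene names tested (gray). IGFBP7, CRIM1 and IGFBP1 lie to the upper left, with differences between the populations of -4.05, -3.38 and -2.53, while IGFBP6 is below 0 on both axes and IGFBP4 above it.

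Among the other ligands, partners and receptors nothing was called. IGF1 was not tested. IGFALS, which forms the ternary complex of IGF in blood, was 0.50 in H460C and 0.26 ± 0.00082 (SD, n = 2) in H460R, and INS was -0.024 and -0.073 ± 0.024. IGF2R, the receptor that clears IGF2, was -0.79 in H460C and 0.65 ± 0.063 in H460R, with an adjusted p of 6.34e-05 by limma for the difference of -1.43. The insulin receptor gene INSR was 0.026 and 0.15 ± 0.040, and its populations were not separated (adjusted p = 0.194, limma).

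Of 16 tested adaptors and docking proteins, none was called against H460. IRS1, the main docking protein of the receptor, was -1.39 in H460C (FDR 0.122) and 0.091 ± 0.013 (SD, n = 2) in H460R. SHC1, which links the receptor to RAS, was -1.05 and 0.60 ± 0.0014. Both were lower in H460C than in H460R, with adjusted p-values by limma of 0.000113 and 4.03e-05. GRB10, an inhibitor of the receptor, went the other way with 0.22 and -1.03 ± 0.018 (difference 1.25, adjusted p = 6.44e-05, limma). GRB14 was 0.24 and 0.80 ± 0.16, and the phosphatase PTPN1 was 0.66 and 0.77 ± 0.00076.

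In the PI3K, AKT, mTOR and FOXO group, with 21 tested genes, 2 regulatory subunits of PI3K were called in opposite directions in CSCs. PIK3R1 was -1.92 in H460C (FDR 0.0469) and 0.41 ± 0.094 (SD, n = 2) in H460R, and its other probe was -1.24 in H460C without a call. PIK3R3 was 2.30 in H460C (FDR 0.0393) and 1.24 ± 0.70 in H460R (FDR 0.162). The PIK3R1 call was lost in 8 other settings, with FDRs of 0.0503 to 0.131. PIK3R3 was well above background in H460 on 4 of 8 arrays, was not tested under the stricter filter and was not called in H460C on the Cy5 arrays alone (FDR 0.0632). In H460R it was called higher with the log ratio of the scanner software (3.38, FDR 0.0087) and with an offset of 0 (2.17, FDR 0.027). In the main setting the H460R call was EIF4EBP1, the translation inhibitor that mTOR inactivates, at -2.05 ± 0.12 with an FDR of 0.00282, while H460C read -0.78. FOXO1, a transcription factor that AKT keeps out of the nucleus, was 1.66 in H460C (FDR 0.124) and 0.22 ± 0.14 in H460R. PDPK1 was 0.43 and 0.75 ± 0.012.

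Of 5 tested IGFBP proteases and their inhibitors, none was called against H460. PAPPA was -0.81 in H460C and 1.38 ± 0.11 (SD, n = 2) in H460R (FDR 0.113), and the difference of -2.18 had an adjusted p of 5.98e-05 by limma. Its inhibitor STC2 was 0.096 and 1.16 ± 0.16, with a difference of -1.07 and an adjusted p of 0.000354 by limma. The other inhibitor STC1 was 0.90 and 0.46 ± 0.031, and the protease CTSD was -0.58 and 0.16 ± 0.071.

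Proteins that share the IGFBP-like domain included the CCN matricellular proteins. CCN1, formerly CYR61, was called higher in H460R at 1.86 ± 0.038 (SD, n = 2) with an FDR of 0.0246, and was -0.058 in H460C. Its other tested probes gave 1.88, called, and 1.42, not called, in H460R. The call was lost with the log ratio of the scanner software (FDR 0.184) and with an offset of 0 (0.0668). CCN3, formerly NOV, was -1.83 in H460C (FDR 0.0519) and -0.37 ± 0.015 in H460R. Its other tested probe gave -0.83 in H460C (FDR 0.334) and -0.28 in H460R. CCN2 was -1.65 in H460C (FDR 0.0836) and 0.34 ± 0.25 in H460R. HTRA3, a secreted serine protease, was called higher in H460C at 2.56, 5.91-fold, with an FDR of 0.0279, and was -0.18 ± 0.069 in H460R, and it was not tested under the stricter filter. IGFBPL1 and ESM1 were -0.087 and -0.49 in H460C and 0.49 ± 0.073 and 0.49 ± 0.33 in H460R. The study had listed CCN1 in H460R and CCN3 in H460C from these samples as well.

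The IGF2 mRNA-binding proteins, which are known in early development and in tumors, were not called. IGF2BP3 was 0.83 in H460C and 0.78 ± 0.051 (SD, n = 2) in H460R. IGF2BP2 was 0.16 and 0.52 ± 0.0048. IGF2BP1 was not well above background in H460 on any array and entered the tests only through H460C, where 4 of 4 arrays passed. Its mean in H460C was 0.23, or 1.18-fold, and would be larger with a lower H460 signal. In H460R it was well above background on 2 of 4 arrays. Its ratio there, 0.022 ± 0.030, was not separated from H460 (adjusted p = 0.67, limma). H19, HMGA2 and PLAG1 were on the array and not tested.

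**Figure D5:**
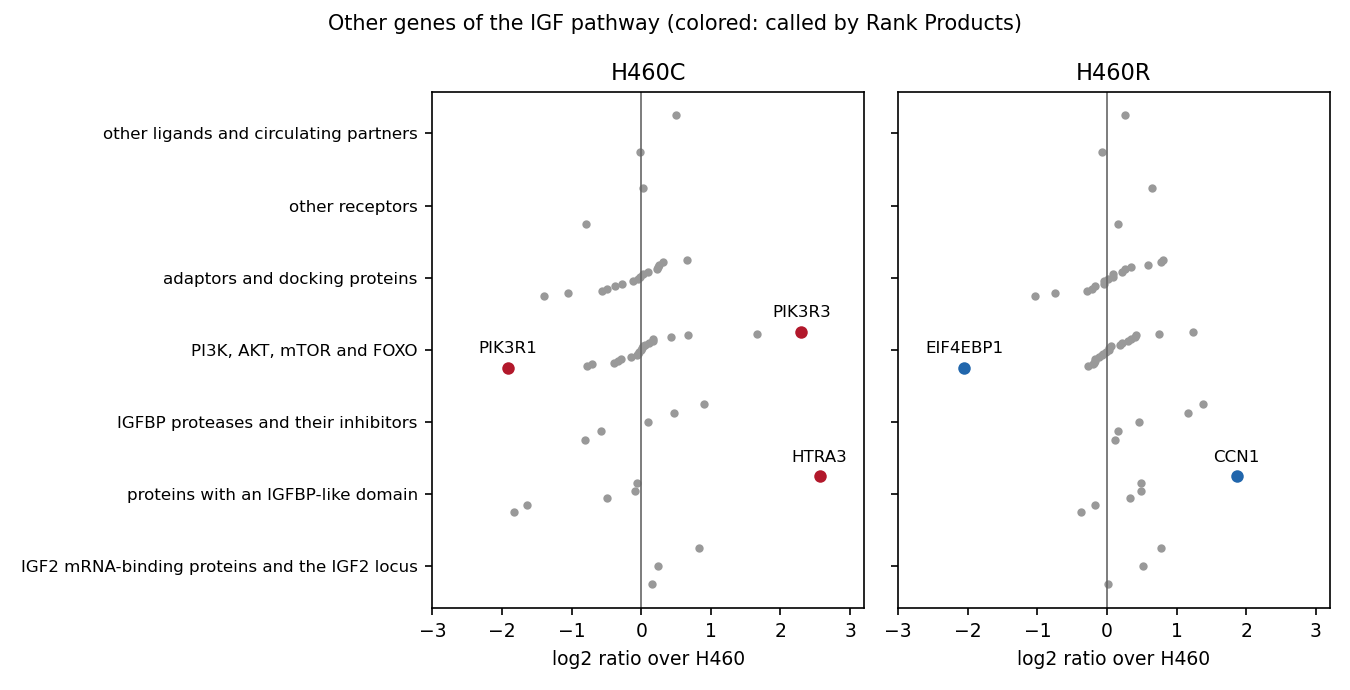
Log2 ratio over H460 (horizontal axis) of the 55 tested genes of the pathway list in H460C (left) and H460R (right), 1 point per gene, by group of the list (vertical axis, spread within a group by rank). Colored and named points were called by Rank Products. HTRA3 at 2.56, PIK3R3 at 2.30 and PIK3R1 at -1.92 were called in H460C, and EIF4EBP1 at -2.05 and CCN1 at 1.86 in H460R.

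The labels were checked with cell type markers. The epithelial keratins KRT8, KRT18 and KRT19 were well above background in all channels, and PROM1 (CD133), a marker of CSCs, was so in none. By RT-PCR the study reported more CD133 in both populations, and less CD44 and CD166 (ALCAM) in H460C. On the arrays CD44 was -0.72 in H460C and -0.14 in H460R, and ALCAM was -0.23 and 1.32. Of 5 matched fibroblast markers, 4 were well above background on all H460 arrays, and LUM was -3.23 in H460C and -1.02 in H460R while COL3A1 was 1.22 and -0.70. The leukocyte marker PTPRC was in no channel above background. The matched markers above background on all H460 arrays were 3 of 5 epithelial, 3 of 4 stem cell, 2 of 4 leukocyte and 1 of 4 endothelial. In H460C all 5 epithelial markers were above background on all arrays. CDH1 and PECAM1 were above background on 4 of 4 H460C arrays and on 0 of 8 H460 arrays, and EPCAM was 1.36 in H460C. Other markers of the same types went the reverse way. KRT19 was -1.15 in H460C, and KDR was above background on 0 of 4 H460C arrays and 8 of 8 H460 arrays. DCN was above background on 1 of 4 H460C arrays and 8 of 8 H460 arrays. Whether cells in other states had a part in the IGFBP ratios was not tested. In such bulk RNA fewer cells expressing a gene and less RNA per cell cannot be told apart. The number of probes above background per array ranged from 25868 to 28499 in the channel of the studied cells and from 22834 to 26966 in that of H460. The dye-swapped arrays of a sample correlated at 0.58 to 0.75 and arrays of the same dye at 0.94 to 0.99. Own log2 ratios correlated with the authors' processed table at 0.946 to 0.997, and there the 4-array means of the called members were -3.58 for IGFBP7, -2.38 for IGFBP6 and -2.14 for CRIM1 in H460C and 1.97 for IGFBP1 in H460R.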

How the data were processed

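RNA of H460C and H460R (2 samples each, 2 dye-swapped arrays per sample) was compared with H460 RNA on Agilent 4x44K dual-color arrays, whose design annotation is on hg18. The authors scanned the arrays with Feature Extraction 10.1.1.1 and deposited, per array, the median intensity of each spot and its local background, flags, and a log10 ratio of red over green. On 1 array the decimal points of that log10 ratio were lost, and this deposited score was restored by a factor of 10 to the power 9, which brought 100% of its nonzero ratios within 0.01 of those of the processed signals. The authors also deposited a table of processed log2 ratios. limma is named in the submitters' processing notes, without a version, and the background correction and normalization behind that table are not given in the sources used here. Its column medians were between -0.02 and 0, its direction and log2 scale were found by comparison with the scanner values, and any gene centering is unknown.

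From the intensities, log2 ratios were computed with limma 3.58.1 in R 4.3.3 by normexp with an offset of 50 and loess within each array. Control spots were left out (43376 spots and 41000 probes remained), and outlier spots were then set to missing on each array. Ratios were given the direction of studied cells over H460. Spots of a probe were averaged, and both arrays of a dye-swapped pair were required and averaged. A probe was kept if a share of at least 0.5 of its spots was well above background in every channel of 1 or more populations, which left 26046 probes, 24373 of them with complete pairs. Precision is limited by the number of arrays.

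Of 25074 probes with RefSeq accessions, 23958 were matched to a symbol in the RefSeq table of GRCh38.p14. Gene values are those of the brightest tested probe. Ratios over H460 were tested by Rank Products (exact p on 2 ratios) and H460C against H460R by limma on 4 ratios, with Benjamini-Hochberg adjustment over all tested probes and a threshold of 0.05. The tests were tried on simulated data first.

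The members, the pathway and marker lists and the tests were chosen with earlier results of these data known. Named genes are all members, the pathway genes called or with up to 3 of the largest ratios per group and population, and the 3 nearest profiles to the extreme member of each population. The alternatives tried were the scanner software's log ratio, no background subtraction, an offset of 0, median centering, the authors' table, other filters, 1 dye orientation, the mean over probes, limma in place of Rank Products, and changes in the replicates.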

Additional observations from a re-analysis of the deposited data

Results flagged for a closer look

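The difference between H460C and H460R, which sets the effects in both populations against the same H460 sample, passed an adjusted p of 0.05 by limma for 8 members. The log2 differences were -4.05 for IGFBP7, -3.38 for CRIM1, -2.53 for IGFBP1, -1.95 for IGFBP3, -1.11 for IGFBP6, -0.998 for IGFBP2, -0.305 for IGF1R and -0.27 for IGF2. The IGFBP2 probe was saturated in H460 on 4 of 8 arrays and in H460R on 2 of 4. The brighter IGFBP3 probe was saturated in H460R on 1 of 4 arrays. The IGF2 probe was not well above background in H460 on any array. Under the stricter filter, without IGF2, 7 members were lower. Of all gene names, 28.5% were lower in H460C by the same test. IGFBP1, IGFBP3, IGFBP6, IGFBP7 and CRIM1 had already been listed by the study from these samples. In CRIM1 the array of H460R replicate 1 with H460R in Cy5 stood apart from the other 3 arrays of H460R at 1.52, the 1 of 18 sets of 4 arrays with such a gap, where chance gives about 1 in 20.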

How the results depend on the processing

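Precision is limited by 2 RNA samples per population and by probes near background, such as those of IGFBP5 and IGF2. Over single members, 362 values kept their direction and, where tested, their side of the threshold, 25 became calls, 12 lost the call and 3 turned sign. The last were IGF1R in H460R, at 0.049 with median centering, 0.0063 on the Cy5 arrays alone and 0.18 with the mean over probes. The 362 include ratios over H460 with 1 replicate left out, which had no test. Their shift was scored against the SD of the 2 replicates, which it cannot exceed, so only their sign could have changed. With limma in place of Rank Products, members called lower and higher were 7 and 2 in H460C and 2 and 6 in H460R, and pathway genes 18 and 19 in H460C and 12 and 25 in H460R, of 55, where 34.8% and 36.9% of all gene names were called in H460C and 32.7% and 37% in H460R. Members called in H460R changed to 0 higher with the scanner software's log ratio, and to 1 lower without a filter or with the mean over probes, and in H460C to 1 higher on the Cy3 arrays. Pathway genes called lower in H460C changed from 1 to 0 with the scanner software's log ratio, no background subtraction, an offset of 0, median centering, the stricter filter and the mean over probes, and to 2 without a filter and on the Cy3 arrays. Those called higher in H460C changed to 0 with the stricter filter and to 1 on the Cy5 arrays, and in H460R to 2 with the authors' table and on the Cy5 arrays. With the scanner software's log ratio and with an offset of 0 the count in H460R stayed at 1, with PIK3R3 in place of CCN1. Keeping pairs with 1 array missing, an alternative chosen after seeing the data, gave 0 lower in H460C and 2 higher in H460R. Between H460C and H460R, members higher rose from 0 to 1 (IGFBP4) with no background subtraction, median centering, the stricter filter and the Cy3 arrays. Pathway genes higher were 7 with median centering, 8 with the stricter filter and 7 on the Cy5 arrays, against 14. Leaving out 1 replicate gave 7 to 8 members lower, 0 to 1 higher and 8 to 12 pathway genes higher. The replicate numbers do not pair the samples by the labels, and with only 2 pairs the same-numbered deviations correlated at 0.227. With the replicate block 1 member, IGFBP4, was called higher (adjusted p = 0.0214, limma), and no other member changed its call. Leaving out a replicate gave no test of Rank Products calls, since 1 ratio cannot pass its threshold. The causes of these changes were not tested.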
